A study of Caenorhabditis elegans with 14 samples.

Results

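miR-232-3p and miR-357-3p, 2 *C. elegans* guide strands grouped as the miR-232 seed family, were followed through 5 groups of small RNA libraries. They are 2 of the 214 guide strands, and 2 of the 371 strands of either kind, in the authors' count table. They were chosen by their counts in the L4 mutants, because both were lower with the *tm5522* allele of *hrpk-1* than with *zen17*, so the values of that contrast are a description here and carry no test. For the same reason the guide strands were tested only where no *hrpk-1* mutant L4 library took part. The grouping into a family was taken as given. Neither a shared seed nor the absence of further members was checked against sequences here.

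A miRNA hairpin is cut into a short duplex, of which the guide strand is kept by an Argonaute protein such as ALG-1 while the star strand (miR*) is mostly lost. The guide directs the silencing complex to mRNAs that pair with its seed, the bases near its 5′ end. miRNAs with the same seed form a family and can in principle act on the same targets even when their genes lie apart and are expressed at different times. The level of a guide strand therefore depends on transcription of its gene, on processing of the hairpin and on the stability of the loaded strand, which small RNA counts do not separate.

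HRPK-1 is a KH domain RNA-binding protein that was found with ALG-1, and the study asked whether its loss changes mature miRNA levels. Embryos and L4 larvae of wild type (N2) and of *hrpk-1(zen17)* were each sampled with 3 libraries, and L4 larvae of *hrpk-1(tm5522)* with 2. All were grown at 20 °C, and the mutants carry no other listed mutation. *zen17* is a CRISPR-made deletion that leaves no HRPK-1 protein. *tm5522*, described in the study as antimorphic, is an in-frame deletion that leaves a truncated protein. That protein is predicted to lack part of the first KH domain, the whole second KH domain and part of the prion-like domain. The mutants lack or alter HRPK-1 in the whole animal, so a change can arise in any tissue, and fewer cells of a type cannot be told apart from less RNA per cell. Small RNA libraries do not measure the *hrpk-1* mRNA, so the genotypes could not be checked from the counts.

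The tables held 1919348 to 19762103 counts per library, with the fewest in wild type embryo replicate 3, and 248 to 302 of the strands were detected in each. Levels are in ppm, a strand's counts scaled to the total miRNA counts of its library, and intervals cover counting error only. The stage labels fitted 3 marker miRNAs. miR-35-3p, a miRNA of the embryo, was the most abundant guide strand in all embryo libraries (232960 to 405007 ppm) and lay between 138 and 696 ppm at L4. let-7-5p, a miRNA of late larvae, was at most 34.6 ppm in embryos and between 11490 and 47805 ppm at L4. lin-4-5p, an early larval miRNA, lay between 2.11 and 5.21 ppm in wild type embryos and between 15.4 and 23.2 ppm in *hrpk-1(zen17)* embryos, with at least 2029 ppm in every L4 library. Nothing in the labels says whether replicates came from separate cultures, so p-values measure the spread between libraries, which may be partly technical.

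The members come from unlinked genes. In the WBcel235 annotation, mir-232 (WBGene00003325) occupies 98 bases of chromosome IV, at IV:10994169-10994266 on the minus strand. It overlaps no annotated gene, and its nearest protein-coding neighbour, F13H10.5, lies 3 bases away on the plus strand. Its guide is the 3p arm, 23 bases at IV:10994184-10994206, and its star is the 5p arm, 23 bases at IV:10994226-10994248. mir-357 (WBGene00023454) occupies 110 bases at V:8580542-8580651 on the minus strand, inside an intron of the protein-coding gene symk-1, which runs on the plus strand. Its guide is again the 3p arm, 22 bases at V:8580565-8580586. A second hairpin, mir-358 (WBGene00023455) at V:8580858-8580967, lies 206 bases from mir-357 on the same strand and in an intron of the same host gene. mir-358 was the only other miRNA gene within 10 kb of either member. The build behind the count table is not given in the sources used here, and the positions rest on a match by gene name.

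miR-232-3p was present at both stages and in every group, with its lowest L4 level in *hrpk-1(tm5522)*. In wild type embryos it stood at 17.9, 28.1 and 80.8 ppm in replicates 1, 2 and 3 (42.3 ± 33.7, SD, n = 3), from 195, 217 and 155 counts. In *hrpk-1(zen17)* embryos it stood at 47.1, 99.1 and 36.1 ppm (60.8 ± 33.7, SD, n = 3). The embryo groups overlapped, and the highest wild type value belonged to the shallowest library. Wild type L4 larvae held 54.2, 102 and 40.3 ppm (65.7 ± 32.6, SD, n = 3) and *hrpk-1(zen17)* L4 larvae 62.4, 81.0 and 66.8 ppm (70.1 ± 9.71, SD, n = 3). Wild type L4 replicate 2 was the highest of all 14 libraries, and the *hrpk-1(zen17)* L4 values lay within the wild type L4 range. The *hrpk-1(tm5522)* libraries held 21.3 and 23.4 ppm (22.4 ± 1.44, SD, n = 2), below every other L4 library but inside the range of wild type embryos. Ranked by abundance among guide strands, miR-232-3p was between 68th and 83rd in the other 12 libraries and 93rd and 92nd in *hrpk-1(tm5522)*.

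miR-357-3p was close to the limit of detection in embryos and matched or passed miR-232-3p in most larval libraries. Wild type embryos gave 8, 7 and 6 counts, which is 0.734, 0.908 and 3.13 ppm (1.59 ± 1.33, SD, n = 3). The value of 3.13 ppm came from the shallowest library and had a 95% Poisson interval that reached 6.80 ppm. *hrpk-1(zen17)* embryos gave 17, 28 and 9 counts, or 1.65, 2.65 and 1.29 ppm (1.86 ± 0.705, SD, n = 3), within the wild type range. Wild type L4 larvae gave 60.0, 30.1 and 41.1 ppm (43.7 ± 15.1, SD, n = 3). L4 larvae with *zen17* gave 63.1, 129 and 73.8 ppm (88.6 ± 35.4, SD, n = 3). All *hrpk-1(zen17)* L4 values were above all wild type ones, although the nearest pair, with Poisson intervals of 59.1 to 67.2 and 56.2 to 64.0 ppm, was not separated by counting error alone. The *hrpk-1(tm5522)* libraries held 21.8 and 17.8 ppm (19.8 ± 2.83, SD, n = 2), the lowest of the L4 libraries and still above every embryo library.

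**Figure D1:**
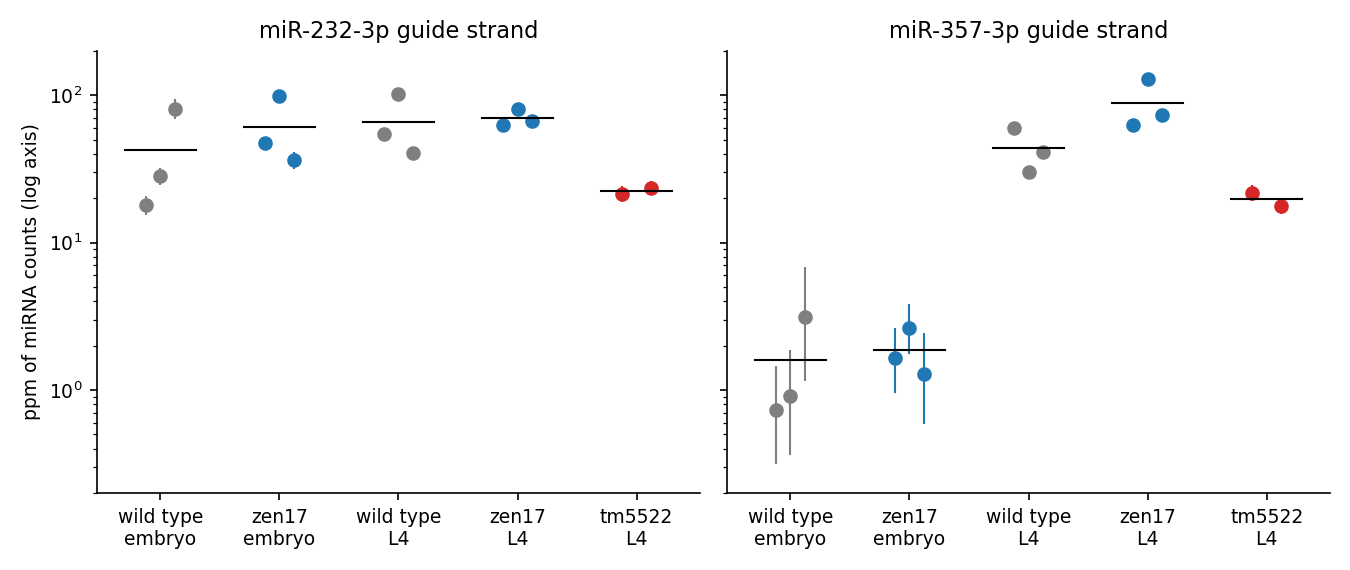
Abundance of miR-232-3p (left) and miR-357-3p (right) in each of the 14 libraries, in ppm of miRNA counts on a log axis. Points are libraries with 95% Poisson intervals and black lines are group means. miR-232-3p spans the same range in embryos and L4 larvae, miR-357-3p is below 4 ppm in every embryo library, and both are near 20 ppm in *hrpk-1(tm5522)*.

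Ordered by mean, the groups differed for the members. For miR-232-3p the order ran from *hrpk-1(tm5522)* L4 through wild type embryos, *hrpk-1(zen17)* embryos and wild type L4 to *hrpk-1(zen17)* L4, and each neighbouring pair above *hrpk-1(tm5522)* overlapped, as *hrpk-1(tm5522)* did with wild type embryos. For miR-357-3p it ran from wild type embryos and *hrpk-1(zen17)* embryos, which overlapped, through *hrpk-1(tm5522)* L4 and wild type L4 to *hrpk-1(zen17)* L4. The last steps did not overlap in ppm. After TMM normalization over all 14 libraries, the values of *hrpk-1(tm5522)* (17.1 to 23.1 CPM) did overlap those of wild type L4 (21.9 to 62.3 CPM) for miR-357-3p, whereas those of *hrpk-1(zen17)* L4 (71.5 to 107 CPM) remained above wild type.

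Added up, the members gave 43.9 ± 35.1 ppm in wild type embryos, and *hrpk-1(zen17)* embryos gave 62.6 ± 34.4 ppm (SD, n = 3 each). The sum was 109 ± 25.9 ppm in wild type L4 and 159 ± 45.1 ppm in *hrpk-1(zen17)* L4 larvae (SD, n = 3 each), with library ranges of 81.4 to 133 and 125 to 210 ppm. In *hrpk-1(tm5522)* the sum was 42.2 ± 1.38 ppm (SD, n = 2), about the wild type embryo mean and below every other L4 library.

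The make-up of the family changed with the stage. miR-357-3p was 3.94, 3.13 and 3.73% of the members' counts in wild type embryos and 3.39, 2.60 and 3.45% in *hrpk-1(zen17)* embryos. The embryo shares thus lay close together, although the miR-232-3p levels did not. These shares rest on 6 to 28 miR-357-3p counts per library, so differences between them are poorly resolved. In wild type embryo replicate 3 the 95% Wilson interval ran from 1.72 to 7.89%. In wild type L4 larvae miR-357-3p was 52.5, 22.7 and 50.5% of the family, in *hrpk-1(zen17)* L4 larvae 50.3, 61.4 and 52.5%, and in *hrpk-1(tm5522)* 50.5 and 43.2%. The L4 groups overlapped, and miR-357-3p made up 43.2 to 61.4% of the family in all L4 libraries but wild type L4 replicate 2, whose Wilson interval (20.9 to 24.6%) lay far from the next library.

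**Figure D2:**
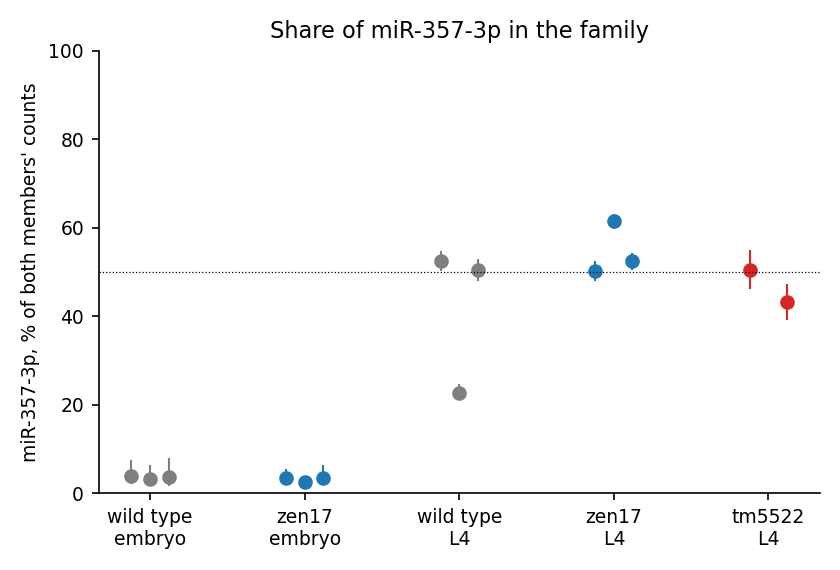
miR-357-3p as a percentage of the summed counts of miR-357-3p and miR-232-3p, by group. Points are libraries with 95% Wilson intervals, and the dotted line marks equal counts of the members. All embryo libraries lie below 4%, and all L4 libraries except wild type L4 replicate 2 (22.7%) lie above 43%.

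Expressed as the ratio of miR-357-3p to miR-232-3p within each library, which needs no scaling between libraries, wild type L4 larvae were 18.6-fold above wild type embryos (log2 difference 4.22). The groups did not overlap, and an exact two-sided permutation test gave p = 0.1, the smallest that 3 libraries against 3 allow. The difference stayed between 3.88 and 4.84 with any library left out. Between *hrpk-1(zen17)* and wild type embryos the log2 ratio differed by -0.20 (exact permutation p = 0.4). At L4 *hrpk-1(zen17)* exceeded wild type by 0.81 in the log2 ratio, but by 0.19 without wild type L4 replicate 2. For *hrpk-1(tm5522)* against wild type L4 the corresponding values were 0.35 and -0.27.

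From the embryo to L4 in wild type, miR-357-3p went from 6 to 8 counts per library to between 450 and 937, and miR-232-3p did not pass the test. Each group was compared by edgeR's quasi-likelihood test over all strands that reached 10 counts in enough libraries to fill the smaller group, with p-values adjusted by Benjamini-Hochberg and called at 0.05. In this comparison 72.2% of the 230 strands tested passed, with 40.9% of the 230 higher at L4, and the median strand changed by 2.07 on the log2 scale in either direction. miR-357-3p was 31.8-fold higher (log2 fold change 4.99, standard error 0.52) and was higher in 3 of 3 L4 libraries than in any embryo library, where 39.1% of strands lay wholly higher. It passed the filter only through the L4 libraries, so it had to differ there and no p is given for that fit. In the fit with no filter on low counts it was at 5.05 (edgeR, standard error 0.51, adjusted p = 9.83e-11), and the 6 to 8 counts of the embryo libraries limit the precision of the fold. Leaving out any library kept the change between 4.72 and 5.45. miR-232-3p was at 0.60 (standard error 0.30, adjusted p = 0.0920), nearer to no change than the median strand, and the groups overlapped. Without wild type embryo replicate 3, the shallowest library, it was at 0.86 with an adjusted p of 0.0291.

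The same comparison in *hrpk-1(zen17)* animals uses libraries that chose the members and is given without a test. miR-357-3p was 43.7-fold higher at L4 (log2 fold change 5.45, standard error 0.34) and wholly above the embryo libraries, where 36.1% of strands were, and miR-232-3p was at 0.23 (standard error 0.31). The median strand changed by 1.88 in either direction.

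In *hrpk-1(zen17)* embryos miR-232-3p did not pass the test against wild type, and miR-357-3p was too rare to test. miR-232-3p was at 0.27 on the log2 scale (edgeR, standard error 0.31, adjusted p = 0.562), while 17.9% of the 201 strands tested passed and the median strand changed by 0.54 in either direction. Without *hrpk-1(zen17)* embryo replicate 2, which holds 1047 of the 1784 counts of that group, the value was -0.0047. miR-357-3p was under the filter, and the ratio of mean ppm was 0.23 on the log2 scale, or 1.18 without wild type embryo replicate 3. The embryo libraries held 6 to 28 counts of it, and the groups overlapped. lin-4-5p lay wholly higher in *hrpk-1(zen17)* embryos, as 17.4% of the strands tested did, and any part of a stage difference in these values was not tested.

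In *hrpk-1(zen17)* L4 larvae miR-232-3p lay with wild type and miR-357-3p lay above it. The log2 fold change was 0.23 (standard error 0.25) for miR-232-3p, and the groups overlapped. For miR-357-3p it was 0.95 (standard error 0.38), or 1.93-fold, with 213 of the 228 strands tested below it and 14 above. The groups did not overlap for miR-357-3p, which held for 10.5% of strands in the same direction. The change was 0.54 without wild type L4 replicate 2, 0.67 without *hrpk-1(zen17)* L4 replicate 2 and 0.95 to 1.13 without any other library. By edgeR's test, 0% of strands passed in this comparison, with 33 at an unadjusted p under 0.05, and DESeq2 called 9. The median strand changed by 0.34. Set against the embryo comparison in 1 model, the *hrpk-1(zen17)* change at L4 was larger by 0.67 for miR-357-3p (standard error 0.63) and smaller for miR-232-3p, at -0.14 (standard error 0.48), both within about 1 standard error.

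In *hrpk-1(tm5522)* L4 larvae both members were lower than in wild type. miR-232-3p was 2.81-fold lower (log2 fold change -1.49, standard error 0.30), and its groups did not overlap, which held for 22.8% of strands in that direction. miR-357-3p was 2.36-fold lower, at -1.24 (standard error 0.46), with groups that overlapped after TMM normalization and not in ppm. Of the 232 strands tested, 33 lay below miR-232-3p and 40 below miR-357-3p, 22.4% passed the test, and the median strand changed by 0.81. These libraries are among those that chose the members, so the share of strands called is a background and nothing is read from it. With any library left out miR-232-3p stayed between -1.58 and -1.33. miR-357-3p stayed between -1.62 and -1.03. The value of -1.62 came without wild type L4 replicate 2, whose level was the nearest to the mutant.

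Against *hrpk-1(zen17)* L4 larvae, the contrast behind the choice, miR-357-3p was 4.64-fold lower in *hrpk-1(tm5522)* (log2 fold change -2.21, standard error 0.27) and miR-232-3p 3.32-fold lower (-1.73, standard error 0.23). Of 229 strands tested, 13 fell below miR-357-3p and 21 below miR-232-3p. Neither member overlapped between the alleles, which held for 31.4% of strands in that direction, and 38.4% of strands passed the test. This comparison shares the mutant libraries with the one against wild type. The difference between the members, 0.46 on the log2 scale in the ratio of miR-357-3p to miR-232-3p, came with ratios that overlapped (1.01 to 1.59 in *hrpk-1(zen17)*, 0.761 to 1.02 in *hrpk-1(tm5522)*).

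**Figure D3:**
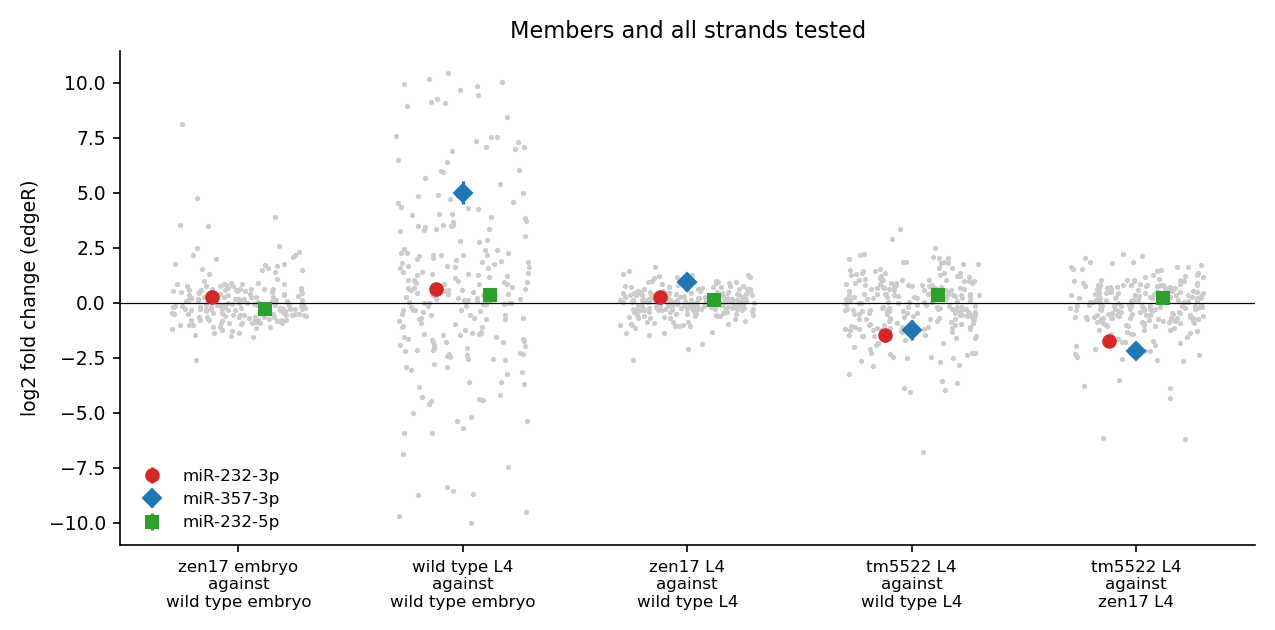
log2 fold changes from edgeR in 5 comparisons. Grey points are all strands tested, and coloured symbols with bars (standard error) are miR-232-3p, miR-357-3p and the star strand miR-232-5p. miR-357-3p is absent from the embryo comparison because it was under the count filter. The guide strands lie well below 0 in both *hrpk-1(tm5522)* comparisons, whereas miR-232-5p is at 0.36 and 0.22.

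The star strand of mir-232 was not lower in *hrpk-1(tm5522)*, unlike its guide. miR-232-5p, which played no part in choosing the members, stood at 7.25, 6.74 and 16.7 ppm in wild type embryos and 8.15, 15.7 and 8.74 ppm in *hrpk-1(zen17)* embryos. At L4 wild type gave 13.6, 16.8 and 11.2 ppm, *hrpk-1(zen17)* 14.4, 13.6 and 14.9 ppm, and *hrpk-1(tm5522)* 20.2 and 16.0 ppm. The *hrpk-1(tm5522)* values overlapped wild type and included the highest of all 14 libraries. Against wild type L4, miR-232-5p was at 0.36 in *hrpk-1(tm5522)* (edgeR, standard error 0.25, adjusted p = 0.319) and, with *zen17*, at 0.13 (standard error 0.27, adjusted p = 0.859). It was at -0.27 in *hrpk-1(zen17)* embryos (standard error 0.27, adjusted p = 0.524) and at 0.34 in wild type L4 larvae against embryos (standard error 0.33, adjusted p = 0.365). It therefore passed in none of these 4 comparisons, and the embryo value changed sign to 0.14 when libraries were scaled by total counts. Its *zen17* change at L4 exceeded that in embryos by 0.27 (edgeR, standard error 0.43, adjusted p = 0.813) and did not pass, in a test that 4.8% of strands passed.

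The mir-232 strands were closer to balance in *hrpk-1(tm5522)* than in the other groups. The count of guide over star was 2.47, 4.17 and 4.84 in wild type embryos and 5.77, 6.31 and 4.13 in *hrpk-1(zen17)* embryos. It was 3.98, 6.09 and 3.61 in wild type L4 larvae, 4.33, 5.94 and 4.48 in *hrpk-1(zen17)* L4 larvae, and 1.06 and 1.46 in *hrpk-1(tm5522)*. The *hrpk-1(tm5522)* ratios were the lowest of all 14 libraries and overlapped no other group. On the log2 scale the ratio was lower by 1.83 than in wild type L4 (-1.83, limma, standard error 0.55), with 14 of 127 guide and star pairs lower still. Against *hrpk-1(zen17)* L4 it was at -1.97 (standard error 0.35), with 9 of 128 pairs lower, whereas *hrpk-1(zen17)* L4 and wild type L4 differed by 0.13 (standard error 0.42). These values hold the guide counts that chose the members, so they are a description, beside 14.2 and 18.8% of pairs that passed in these comparisons. Where the ratio could be tested it did not pass, with 0.54 in *hrpk-1(zen17)* against wild type embryos (limma, standard error 0.52, adjusted p = 0.623, 4.76% of 105 pairs passed). In wild type L4 larvae against embryos it was at 0.28 (standard error 0.53, adjusted p = 0.695, 56.7% of 104 pairs passed).

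**Figure D4:**
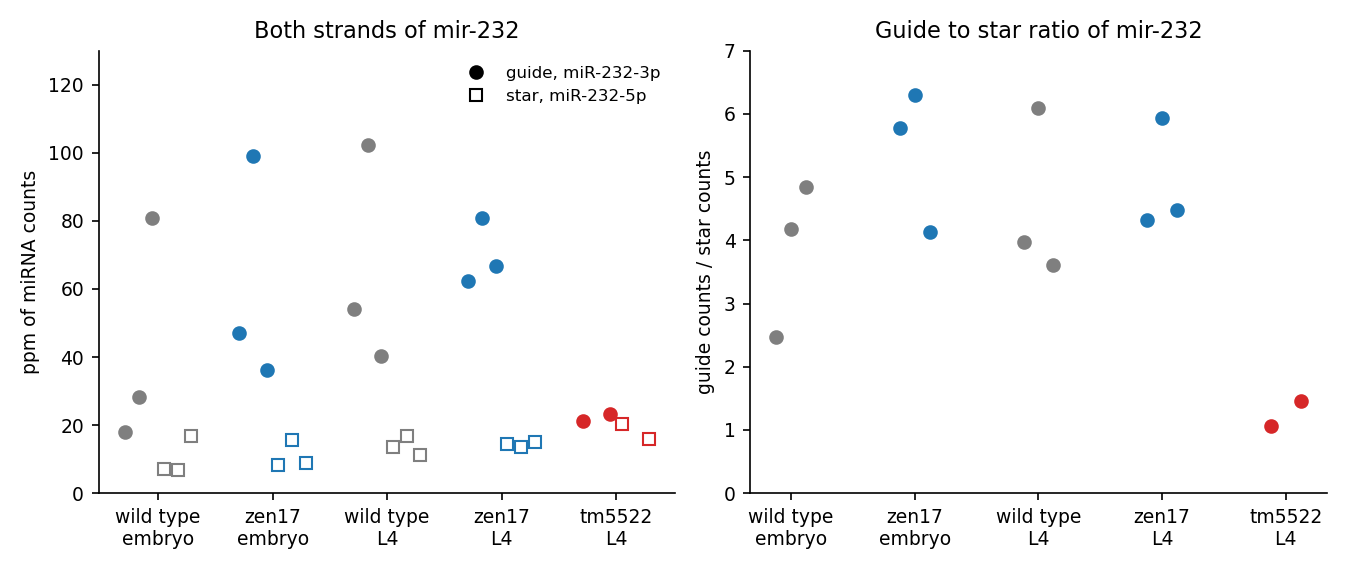
Left, ppm of the guide miR-232-3p (filled circles) and the star miR-232-5p (open squares) in each library. Right, guide counts divided by star counts. In *hrpk-1(tm5522)* the guide lies nearer to the star, with ratios of 1.06 and 1.46, against 2.47 to 6.31 in the other 12 libraries.

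The star strand of mir-357 was rare. miR-357-5p had 0 counts in every embryo library, 5, 5 and 8 counts in wild type L4, 13, 4 and 7 in *hrpk-1(zen17)* L4 and 0 and 2 in *hrpk-1(tm5522)*, and it was under the filter on single strands in all comparisons. The log2 guide to star ratio of mir-357 at L4, which rests on these few star counts, differed from wild type by 0.69 in *hrpk-1(zen17)* (limma, standard error 0.69) and by 0.99 in *hrpk-1(tm5522)* (standard error 0.78), as a description. With the libraries of each group pooled, miR-357-5p made up 0.812% of both strands' counts in wild type L4 (95% exact interval 0.482 to 1.28%). It made up 0.559% in *hrpk-1(zen17)* L4 (0.358 to 0.830%) and 0.407% in *hrpk-1(tm5522)* (0.0494 to 1.46%). These intervals cover counting error of the pooled counts and leave out the spread between libraries, so their overlap does not compare the groups. In embryos, with 0 star counts beside 21 and 54 guide counts, they reach 16.1% in wild type and 6.60% in *hrpk-1(zen17)*. The hairpins thus differed in how far the guide exceeded its star, by a few-fold for mir-232 and by 2 orders of magnitude for mir-357 at L4.

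miR-358, from the neighbouring hairpin, shared the larval timing of miR-357 but not its lower level in *hrpk-1(tm5522)* against wild type. Only miR-357-3p was chosen for low counts in the *hrpk-1(tm5522)* libraries, so this difference between the neighbours is partly fixed by the choice and is a description. The guide strand of mir-358, miR-358-3p, had 1, 0 and 2 counts in wild type embryos and 238, 147 and 248 at wild type L4. Its star strand miR-358-5p had 0 counts in every wild type embryo library and 57, 16 and 27 at L4. Both passed the filter only through the L4 libraries, so the outcome of that fit was fixed and no p is given. In the fit with no filter miR-358-3p passed (edgeR, adjusted p = 3.93e-09). Both hairpins of the cluster thus gave few guide counts in wild type embryos.

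Mean miR-358-3p at L4 was 12.5 ± 2.70 ppm for wild type, 26.7 ± 7.85 ppm for *zen17* (SD, n = 3 each) and 14.5 ± 1.32 ppm for *tm5522* (SD, n = 2). In *hrpk-1(zen17)* its log2 fold change against wild type was 1.04 (edgeR, standard error 0.35, adjusted p = 0.212), which did not pass, beside 0.95 for miR-357-3p. The *tm5522* libraries put it at 0.11 (standard error 0.40, adjusted p = 0.834), beside -1.24 for miR-357-3p, and -0.23 without wild type L4 replicate 2. miR-358-5p was at 0.54 (standard error 0.49, adjusted p = 0.625) and -0.47 (standard error 0.65, adjusted p = 0.587) in the same comparisons. Between the alleles miR-358-3p was at -0.95 (standard error 0.23) and miR-358-5p at -1.02 (standard error 0.34). These differences were smaller than the -2.21 of miR-357-3p, which was chosen by that contrast.

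Counts of miR-357-3p over miR-358-3p put the same values on a scale that needs no normalization. The ratio was 3.94, 3.06 and 3.27 in wild type L4 larvae, 3.22, 3.67 and 2.90 in *hrpk-1(zen17)* and 1.41 and 1.31 in *hrpk-1(tm5522)*. Wild type and *hrpk-1(zen17)* overlapped, and both *hrpk-1(tm5522)* libraries lay below all others. The ratio holds the miR-357-3p counts that chose the member, so it is a description and not a separate result. How many other pairs of strands have ratios that separate in this way was not computed. Wild type L4 replicate 2, which had the fewest miR-357-3p counts for its miR-232-3p, had a ratio to miR-358-3p within the range of the *hrpk-1(zen17)* libraries. The guide to star ratio of mir-358 was 4.18 to 9.19 in wild type, up to 10.6 in *hrpk-1(zen17)* and 7.79 to 12.4 in *hrpk-1(tm5522)* L4 larvae, and these groups overlapped.

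**Figure D5:**
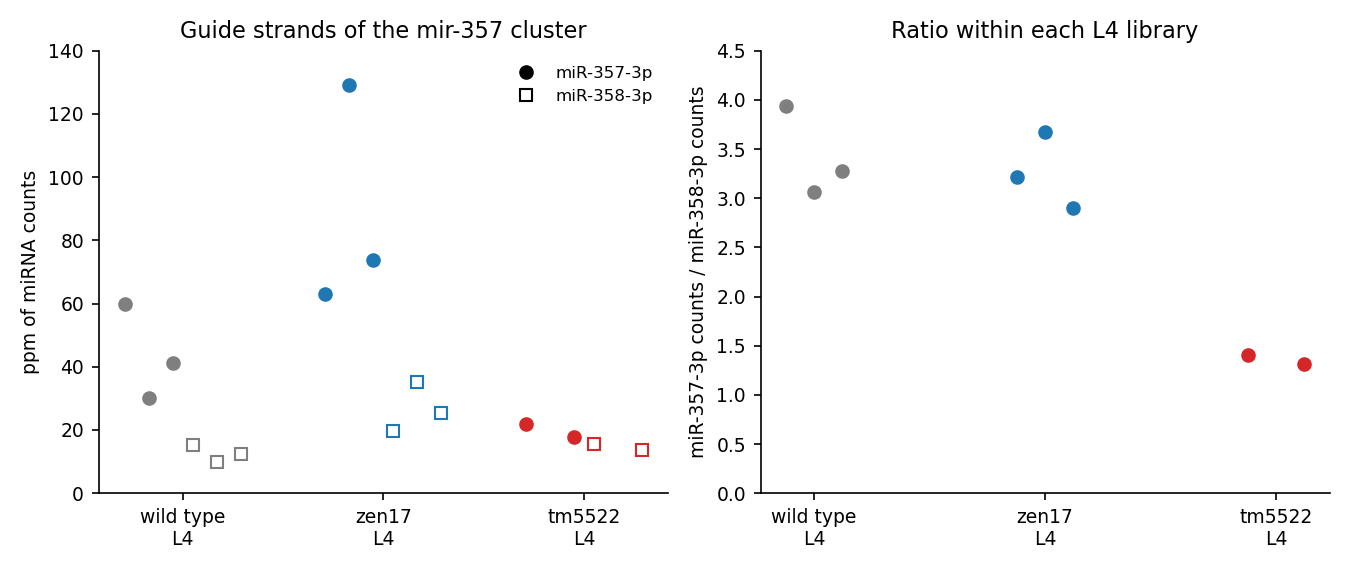
Left, ppm of miR-357-3p (filled circles) and miR-358-3p (open squares), the guide strands of the neighbouring hairpins, in the L4 libraries. Right, counts of miR-357-3p divided by counts of miR-358-3p. The *hrpk-1(tm5522)* ratios of 1.41 and 1.31 lie below the other L4 libraries, which span 2.90 to 3.94.

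The members resembled different miRNAs. Over the 14 libraries and 113 guide strands with a mean of at least 10 CPM, log2 CPM of miR-232-3p was most like that of lsy-6-3p (Pearson r = 0.858), miR-61-3p (0.823) and miR-124-3p (0.821), where the median strand had 0.177. lsy-6 and miR-124 are known from neurons. These 3 had their lowest L4 levels in *hrpk-1(tm5522)* as well: lsy-6-3p was at 7.86 and 8.28 ppm there and at 10.9 to 31.8 ppm in the other L4 libraries. miR-124-3p was at 19.1 and 19.9 ppm against 65.6 to 150.2 ppm, and miR-61-3p at 1162 and 1253 ppm against 1877 to 3785 ppm. Of all strands tested, 22.8% lay wholly lower in *hrpk-1(tm5522)* than in wild type L4, and 31.4% wholly lower than in *hrpk-1(zen17)* L4. Within the 8 L4 libraries alone the correlations were 0.937, 0.875 and 0.892. The 3 strands were picked for likeness over libraries that include *hrpk-1(tm5522)*, where miR-232-3p is low by choice. Their low levels there therefore follow in part from the pick and are no separate result.

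miR-357-3p was most like miR-240-3p (0.969), miR-59-3p (0.969) and its neighbour miR-358-3p (0.963), beside a median of 0.551. These strands share the step between the stages: miR-240-3p went from 3.63 ± 0.991 ppm in wild type embryos to 126 ± 52.3 ppm in wild type L4 larvae, and miR-59-3p from 14.2 ± 9.83 to 262 ± 123 ppm (SD, n = 3 each). Within the L4 libraries the values were lower, at 0.826, 0.549 and 0.807. The members correlated with each other at 0.400 over all libraries and at 0.702 within L4, where *hrpk-1(tm5522)* is low for both. These correlations are descriptions over libraries that fall into 2 stages and share depth and normalization, and they say nothing of shared function.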

How the data were processed

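Gel purified small RNAs went into NEXTflex libraries read on an Illumina NextSeq, and the authors deposited raw counts of reads per guide and star strand. The submitters' processing notes name cutadapt 1.15 and Bowtie. The annotation, and the treatment of reads that map to several miRNAs, are not given in the sources used here, and the miRNA sequences were not analysed here. Columns were mapped to the 14 libraries by label.

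ppm is a strand's count over its library's total. Groups were compared with edgeR 4.0.16 (R 4.3.3; TMM, quasi-likelihood test, compared groups only, at least 10 counts in as many libraries as the smaller group, threshold 0.05), and standard errors were derived from the test statistic. Guide to star ratios used limma 3.58.1 with a pseudocount of 0.5, over pairs with at least 10 counts of both strands together in each library. log2 CPM had a prior count of 2. Named strands are the members, their star strands, miRNAs within 10 kb on the same strand and the 3 guide strands most like each member. Other guide strands with a member's seed were also to be named, but without sequences they could not be looked for. The members and lists were chosen with earlier results of these data known. The alternatives tried were total counts as the scale, RLE size factors, DESeq2 1.42.0, other count filters, all 14 libraries in one fit, a replicate block, a pseudocount of 5 and each library left out. A count of 0 allows 3 counts, which is 1.56 ppm in the shallowest library and 0.152 ppm in the deepest. Positions are from Ensembl's WBcel235 annotation.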

Additional observations from a re-analysis of the deposited data

How the results depend on the processing

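Of 510 values recomputed for 44 results, 471 kept their direction and their side of the threshold or moved by less than the replicate spread. In *hrpk-1(zen17)* embryos the number of strands called, 36, was 17 with total counts as the scale (16 higher and 1 lower, against 21 and 15; median shift 0.35), 22 with at least 10 counts in every library and 17 to 43 with a library left out, and with all 14 libraries in one fit the calls were 26 higher and 4 lower. For wild type L4 against embryos, 166 became 101 with that filter and 154 to 182 with a library left out. For *hrpk-1(zen17)* L4, 0 became 9 with DESeq2, 3 with total counts and 0 to 13 with a library left out (13 without wild type L4 replicate 2). For *hrpk-1(tm5522)* against wild type, 52 became 80 with DESeq2, 81 with all 14 libraries and 0 to 110 with a library left out (0 without either mutant library, 25 and 21 without wild type L4 replicates 1 and 3, 110 without replicate 2). Between the alleles, 88 became 39 with all 14 libraries, 53 with the replicate block and 60 to 111 with a library left out. The causes were not tested.

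For the members, miR-232-3p was at -0.0047 to 0.48 in *hrpk-1(zen17)* embryos and 0.28 to 0.86 in wild type L4 against embryos with a library left out. miR-357-3p was at -0.11 to 1.18 in *hrpk-1(zen17)* embryos. Between the alleles miR-232-3p, at -1.73, was at -1.66 with DESeq2 or RLE size factors, -1.65 with total counts, the stricter filter or all 14 libraries, -1.62 with no filter and -1.76 to -1.59 with a library left out. miR-232-5p turned to 0.14 in *hrpk-1(zen17)* embryos and to -0.10 in the difference between stages with total counts, and lay between -0.025 and 0.18 in *hrpk-1(zen17)* L4 with a library left out. In *hrpk-1(tm5522)* against wild type, miR-358-3p lay between -0.23 (without wild type L4 replicate 2) and 0.39 and miR-358-5p between -0.90 and 0.12 (without replicate 1); between the alleles miR-358-5p lay between -1.19 and -0.74. The mir-232 guide to star ratio was at -0.0073 to 0.47 in wild type L4 against embryos with a library left out.

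Same-numbered replicates did not deviate together in every pair (correlations of -0.36 to 0.14), and the main fits did not pair the samples by number. These correlations use values centred on the means of few libraries, so they cannot show whether same-numbered replicates were prepared together. With the replicate block miR-232-3p was at 0.27 in *hrpk-1(zen17)* embryos and 0.62 in wild type L4 against embryos, and miR-357-3p was at -0.89 in *hrpk-1(tm5522)* against wild type, in place of -1.24. Filtered fits give no value for miR-357-3p in the *hrpk-1(zen17)* embryo comparison. Depth limits miR-357-3p and miR-358 in embryos, where no library held more than 28 counts of either guide.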
